A study of Mus musculus with 12 samples.

Results

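Global gene expression was compared between 3 Aid-/- iPS cell clones, 979F1, 979F2 and 979F3, and 3 Aid+/+ iPS cell clones, 979B1, 979B3 and 979B4. They are 6 of the 12 clones arrayed in the study and were chosen by name, since both genotypes share the experiment number with which the names begin. Each clone was grown from 1 GFP-positive colony of mouse embryonic fibroblasts (MEFs) reprogrammed by retroviruses carrying Oct3/4, Sox2, Klf4 and in some cases c-Myc, and was measured on 1 array. The labels give every clone as male, of a mixed C57BL6, DBA and 129S4 background and at passage 6, grown on gelatin with LIF and puromycin. The Aid-/- clones carry a disrupted Aid gene in every cell, and the clones of both genotypes carry the Nanog-GFP reporter. The other Aid-/- clones are 981E1, 981E4 and 981E5, and the other Aid+/+ clones are 967B2, 967B4 and 967B6.

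Aid is a cytidine deaminase of activated B cells, where it starts the mutation and class switching of antibody genes. It has also been proposed to act in the removal of DNA methylation, an event that accompanies the return of fibroblasts to pluripotency. iPS cells made without it can therefore be asked which genes they express at another level than Aid+/+ iPS cells of the same experiment.

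The arrays of all 979F clones lay on slide 2 and those of all 979B clones on slide 3, so slide and genotype cannot be told apart in this comparison. The paper made its MEFs from individual embryos, each of a single genotype. Differences between embryos, which have a mixed background, therefore cannot be told apart from genotype either. Clones of a series are separate colonies, and nothing ties a clone to a given embryo, so the p-values measure the spread between these clones only. Between 57.6% and 60.4% of the 55681 probes were well above background on each of the 6 arrays, and none was saturated. Levels are given as log2 of the processed signal minus the 75th percentile of the array, so that 0 marks a fairly bright probe. The number of arrays limits the precision. Clone 979F3 did not match its label in 1 respect. Of 10 probes for 7 Y-linked genes detected above background in the other 5 clones, 0 were detected in 979F3. Eif2s3y, a Y-linked translation factor, was at 3.83 in 979F1, 3.56 in 979F2 and -7.40 in 979F3, against 3.95, 3.87 and 4.14 in the 979B clones. Main counts are therefore also given without 979F3. Over 20 chromosomes, the median log2 fold change per chromosome lay between -0.11 and 0.06.

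Probes were called when they differed more than 2-fold with an adjusted p below 0.05. By this rule 103 probes were higher and 128 lower in 979F than in 979B clones, 0.185% and 0.23% of all probes. These calls include 109 named genes, 47 higher and 62 lower, and 68 probes for long intergenic RNAs (lincRNAs). The levels of 979F and 979B clones did not overlap at any of these 231 probes. That nearly follows from the call itself, made on these same 6 clones, and is no further evidence. Over all probes, 12.5% had every 979F clone above every 979B clone and 16.8% had every one below. Of the 231, 132 had a signal well above background in every clone, and 36 in 0 of the 6. Differences were small for most genes. The median absolute log2 difference was 0.22 over the 29793 probes measured well above background in every clone, beside a median SD of 0.11 among 979F clones and 0.15 among 979B clones.

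The count depended on whether dim probes entered the fit and the adjustment, which were both redone without them. With those 29793 probes alone, 6193 passed the adjusted p (2441 higher, 8.19%, and 3752 lower, 12.6%) and 790 passed both thresholds. With normexp background correction 291 of all probes were called, and 64 of the 231 were among them. Leaving out 1 clone brought the 231 down to between 2 and 16, with 3 left without 979F3, 3 without 979F1, 2 without 979F2, 5 without 979B1, 3 without 979B3 and 16 without 979B4. Of the 47 probes named by rule, each lost its call without any 1 clone, except 1 probe of C5ar2 without 979B4.

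**Figure D1:**
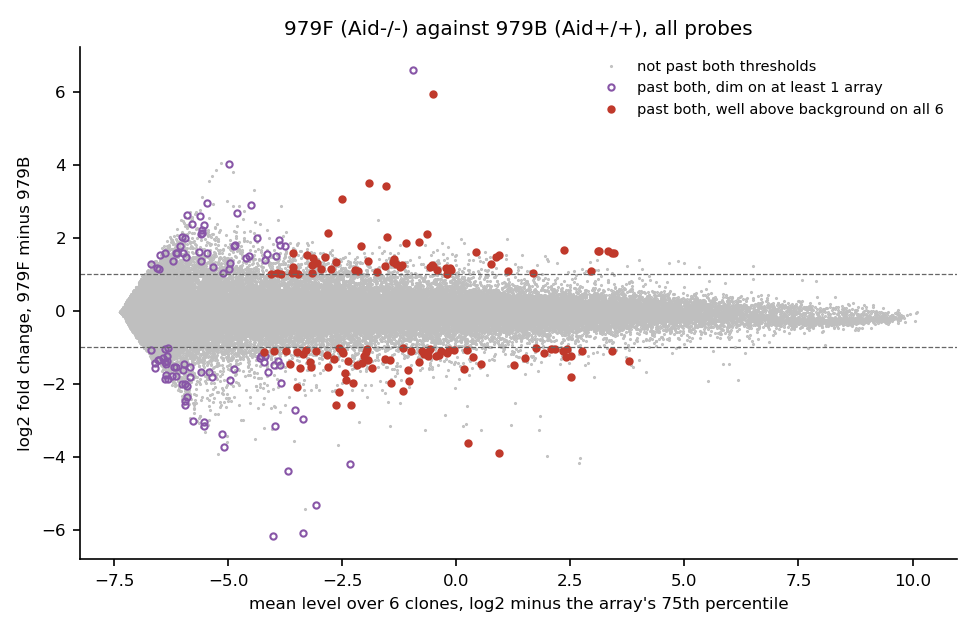
Log2 fold change of 979F over 979B clones (vertical axis) against the mean log2 level of the 6 clones (horizontal axis), 1 point per probe, with dashed lines at a fold change of 2. Red points are the 132 called probes measured well above background in every clone, purple rings the other probes past both thresholds, which lie mostly among dim probes, where the grey points also spread most.

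Among the genes with a name and a good signal in every clone, C5ar2 had the largest decrease. It encodes a receptor for the complement fragment C5a. Its level was -0.84, -1.11 and -1.03 in the 979F clones and 3.24, 2.88 and 2.55 in the 979B clones. The groups lay far apart, with a log2 fold change of -3.88 (SE 0.20, adjusted p = 0.0161), a 14.8-fold difference. The second probe of C5ar2 gave -4.21 (adjusted p = 0.0391) and was well above background in 2 of the 979F clones. The other Aid-/- clones (-0.61 ± 0.94, SD, n = 3) and the other Aid+/+ clones (0.08 ± 0.06, SD, n = 3) were nearer to 979F.

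Rgs17, which shortens G protein signalling, fell by 2.19, Ccdc68 by 1.93 and Arhgef6, an exchange factor for Rac and Cdc42, by 1.91. The other probe of Ccdc68 had -1.85 (SE 0.69, adjusted p = 0.207 in limma) and was well above background in only 1 of the 979F clones. Kbtbd11 fell by 1.98 and, on a second probe, by 1.38. At the first of these probes the other Aid-/- and Aid+/+ clones had means of -1.25 and -1.16, next to the 979B mean of -1.27. At the second, dimmer probe their means, -4.48 and -5.49, were instead nearer to the 979F mean of -4.59, so the probes disagree on which series stood apart.

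Fut9 and Prom1 were also lower in 979F clones. Fut9 encodes the fucosyltransferase that makes the SSEA1 epitope of mouse pluripotent cells. It was at -0.32, -0.77 and -0.80 in 979F and at 1.11, 0.76 and 0.98 in 979B clones, a log2 fold change of -1.58 (SE 0.18, adjusted p = 0.0482), with -0.74 and an adjusted p of 0.0895 on its other probe. Prom1, the CD133 antigen of many stem cells, was at 0.58, 0.58 and 0.42 against 2.32, 1.91 and 1.83, and fell by 1.49 (SE 0.16, adjusted p = 0.0470). Its other probe gave -1.22 and an adjusted p of 0.0621. Mal2, a protein of transcytosis in epithelia, fell by 1.62, the transcription factor Klf15 by 1.56 and Crebrf by 1.57. H2bc3 fell by 1.70, but histone H2B genes are nearly identical copies and its probe may read several of them.

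Ogn, a small proteoglycan of the extracellular matrix, was higher in 979F clones, with a log2 fold change of 2.12 (SE 0.26, adjusted p = 0.0488). It was at 0.13, 0.42 and 0.70 in 979F and at -1.79, -1.25 and -2.07 in 979B clones. Robo4, a receptor of endothelial cells, was at -0.73, -0.44 and -0.36 against -2.97, -2.51 and -2.12 and rose by 2.02 (SE 0.24, adjusted p = 0.0482). The other Aid+/+ clones were at -0.76 ± 0.71 (SD, n = 3), close to 979F.

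Neat1 was the brightest of these genes. This noncoding RNA is the scaffold of nuclear paraspeckles. It was at 4.24, 4.32 and 4.16 in 979F and at 2.50, 2.73 and 2.75 in 979B clones, a 2.99-fold difference (log2 1.58, SE 0.11, adjusted p = 0.0359), while the other Aid-/- (3.58) and Aid+/+ clones (3.05) had means between them. Another probe, listed on the array as NEAT1 (A_30_P01020135) and named here after its values were seen, rose by 1.65. At this probe every Aid-/- clone lay above every Aid+/+ clone, though 981E5 (2.77) and 967B4 (2.74) nearly met. Aspa, which cleaves N-acetylaspartate, rose by 1.77, Pianp by 1.54 and Nrsn1 by 1.48. Apod, a secreted lipocalin, rose by 1.62, the matrix adhesion protein Svep1 by 1.45 and the kinase Prkca by 1.34, with 0.92 and an adjusted p of 0.152 on its other probe.

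The zinc finger gene Zfp607b was higher in 979F clones. It was at -0.20, 0.10 and -0.39 against -2.16, -1.91 and -2.03, a log2 fold change of 1.87 (SE 0.16, adjusted p = 0.0363). Zfp944, also of this family, had 1.52 on 1 probe past both thresholds, while its 3 other probes had -0.16, -0.58 and 0.00 and did not pass, so the gene as a whole cannot be said to differ. At the probe with -0.58 all 979F clones lay below all 979B clones (adjusted p = 0.0210 in the limma fit of probes well above background on all 6 arrays).

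**Figure D2:**
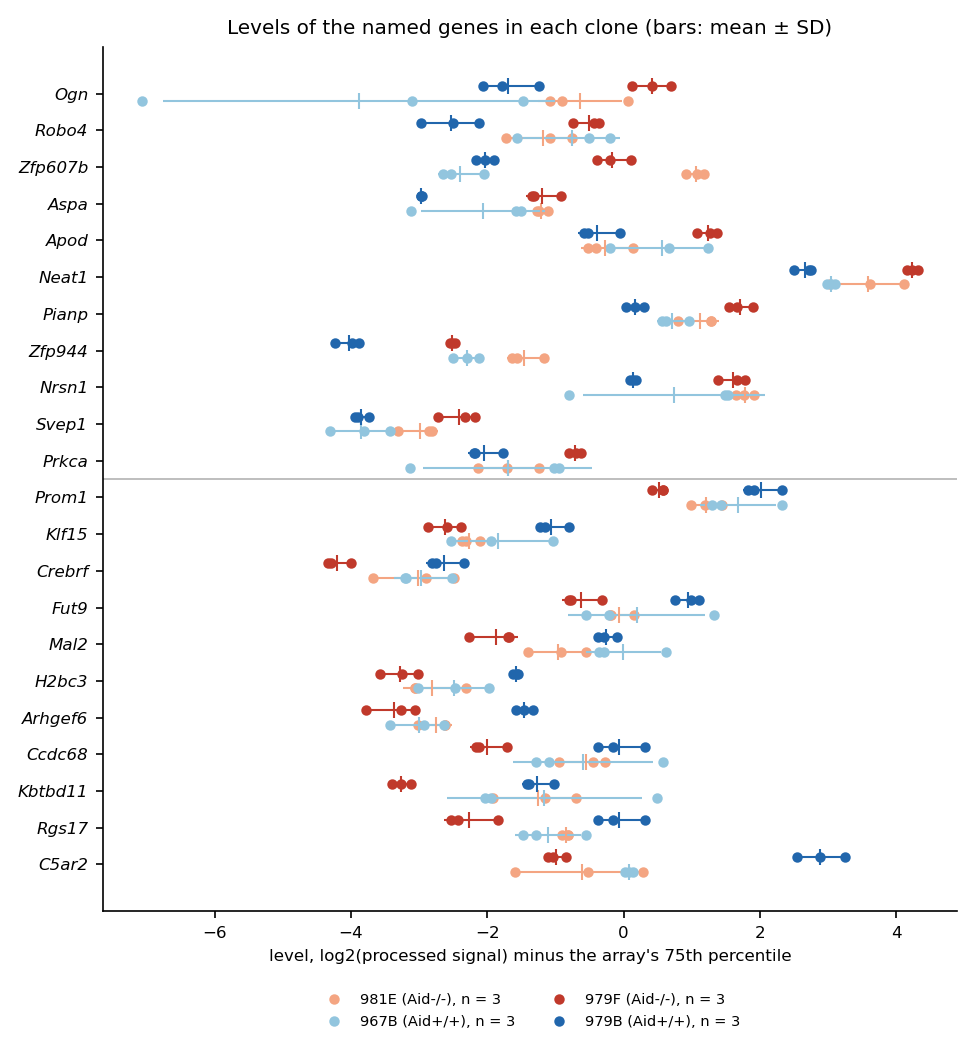
Level in each clone (points) with the mean and SD of the series (tick and bar), for 11 genes higher (above the grey line) and 11 lower in 979F than in 979B clones. The upper row of each gene holds the 979F (red) and 979B (dark blue) clones, which do not overlap, and the lower row the other Aid-/- (orange) and Aid+/+ (light blue) clones, whose place differs from gene to gene: at Ogn the bar is widest in the other Aid+/+ clones, and at this probe of Kbtbd11 both lie near 979B.

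Where a called probe rose above background in every clone of one series and in no clone of the other, only a bound can be given. There were 17 such probes with signal in 979F and 14 with signal in 979B. Heph, a ferroxidase of iron export, was at least 3.89-fold higher in 979F (adjusted p = 0.0370), 4921504E06Rik at least 2.93-fold (adjusted p = 0.0474), Unc93a at least 2.11-fold, the secreted C1qtnf6 at least 2.06-fold, the ceramide phosphate carrier Cptp at least 2.06-fold and the metalloreductase Steap2 at least 1.65-fold. In the other direction Elapor2 was at least 2.35-fold lower, Mlph, an adaptor of melanosome transport, at least 2.04-fold, Mfsd6l at least 1.57-fold and Clic5 at least 1.35-fold. Other probes of Heph (-0.02 and -0.27) and of Steap2 (-0.02 and 0.29) did not pass. The second Cptp probe had 1.10 (adjusted p = 0.0710), and the dim second probe of 4921504E06Rik -1.43.

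Of the 68 lincRNA probes past both thresholds, 31 were higher and 37 lower. They were 0.42% of the 16194 lincRNA probes, near the 0.415% of all probes. Among those with coordinates and a good signal in every clone, the 3 with the largest increase all lay on chromosome 17 of mm9. A_30_P01030657 and A_30_P01020914 cover the region from 22335458 to 22466521 and rose by 2.15 and 1.49, and A_30_P01030982 covers 22013350 to 22095775 and rose by 1.60. At the first, the 979F clones were at -1.70, -1.80 and -1.73 and the 979B clones between -4.30 and -3.36, with means of -0.71 in the other Aid-/- and -1.62 in the other Aid+/+ clones, so the 979B clones were the lowest of the 4 series. The 3 with the largest decrease were A_30_P01024392 (chromosome 10, 94900849 to 94928059) and A_30_P01027280 (chromosome 4, 145000941 to 145148666), with -1.54 each, and A_30_P01033172 (chromosome 2, 174088550 to 174109425) with -1.49.

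Genes of glycolysis and of the response to hypoxia had lower levels in 979F clones, although 0 of 50 probes, for 29 genes, passed both thresholds (0.23% of all probes did). All 979F clones lay below all 979B clones at 41 of the 50 probes, where 16.8% of all probes did so, and above them at 0. The median log2 fold change was -0.50, beside -0.02 over all probes. Unadjusted p was under 0.05 in this direction at 37 of the probes, beside 12.2% of all. In the fit of probes well above background on all 6 arrays, 28 of 49 passed the adjusted p, beside 12.6% of all. Without 979F3 the clones were apart downward at 41 probes, where the share of all probes was 19.5%, and 4 of the 49 passed, beside 1.34% of all.

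In low oxygen the factor Hif1 binds the letters ACGTG or GCGTG near many of these genes. Among them Bnip3, which drives the removal of mitochondria, had the largest difference. Its 3 probes had -1.92, -1.89 and -1.77 (adjusted p = 0.0546, 0.0558 and 0.0674), and at the first the 979F clones were at 4.98, 4.26 and 4.42 and the 979B clones at 6.83, 6.39 and 6.19. The other Aid-/- and Aid+/+ clones, both with a mean of 5.77, lay between them. Pgk1, which makes ATP in glycolysis, was at 7.81, 7.43 and 7.56 against 8.80, 8.50 and 8.34 (-0.95, adjusted p = 0.0674). Clone 979F1 was the nearest of the 979F clones to 979B at Bnip3 and Pgk1.

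Further members, chosen here after their values were seen, had the same direction. Tpi1 had -0.99 and -0.84 (adjusted p = 0.0526 and 0.0602), Ldha, which makes lactate, -0.80, -0.80 and -0.46, and Gapdh between -0.61 and -0.14 over its 7 probes. The oxygen sensor Egln3 had -1.35 and -1.27, Ankrd37 -1.43, the lactate carrier Slc16a3 -0.81 and -0.77, and Pdk1, which diverts pyruvate from mitochondria, -0.67.

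The promoters of 3 of these genes are shown because the letters that Hif1 reads recur in them. Each is the RefSeq window from 250 bases before to 50 after the start of the transcript in GRCm38.p6, 5′ to 3′ on the strand of the gene, with ACGTG or GCGTG in capitals where either stands on one strand or the other. The first of them is part of the E-box, which Myc reads.
Bnip3, chr7:138909457-138909756, minus strand: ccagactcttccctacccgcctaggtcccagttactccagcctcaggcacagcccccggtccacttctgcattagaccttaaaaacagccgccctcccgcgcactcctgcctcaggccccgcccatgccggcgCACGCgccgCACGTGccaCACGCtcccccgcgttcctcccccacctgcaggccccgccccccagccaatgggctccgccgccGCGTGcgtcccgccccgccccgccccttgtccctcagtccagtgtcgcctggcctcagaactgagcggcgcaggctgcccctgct
Ldha, chr7:46845554-46845853, plus strand: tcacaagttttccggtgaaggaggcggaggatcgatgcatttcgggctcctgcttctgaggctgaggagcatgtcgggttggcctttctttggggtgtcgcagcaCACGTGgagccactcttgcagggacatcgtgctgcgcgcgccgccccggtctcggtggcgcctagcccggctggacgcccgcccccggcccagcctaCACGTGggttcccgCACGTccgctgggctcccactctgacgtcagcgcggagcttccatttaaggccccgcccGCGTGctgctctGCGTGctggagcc
Pgk1, chrX:106186850-106187149, plus strand: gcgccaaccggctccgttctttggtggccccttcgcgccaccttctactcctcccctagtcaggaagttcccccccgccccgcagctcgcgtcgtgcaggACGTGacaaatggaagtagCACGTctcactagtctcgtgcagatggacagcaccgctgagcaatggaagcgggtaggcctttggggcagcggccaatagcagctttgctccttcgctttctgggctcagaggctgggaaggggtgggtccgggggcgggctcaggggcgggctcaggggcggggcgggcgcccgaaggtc
The window of Bnip3 held 5 matches, the one shown for Ldha 7 and that of Pgk1 2, while that of Tpi1 held 0. CACGTG holds a match on each strand and was counted on both. Another window of Ldha held 2 matches and that of Egln3 held 1. Over the list, 31 of 39 windows held at least 1 match, and 43.8% of all 32851 RefSeq windows did. The list was made up of genes of glycolysis and the hypoxia response, so this share describes the list and not the clones. A match is a run of letters and not a measured binding site.

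Genes of fibroblasts had higher levels in 979F clones. Of 33 probes for 26 genes, 0 passed both thresholds (0.185% of all probes did) and 26 had an unadjusted p under 0.05 upward (9.19% of all probes did), and all 979F clones were above all 979B clones at 26 of them, beside 12.5% of all probes, and below at 0. The median log2 fold change was 1.19, and over the better measured probes it was 1.14, or 0.79 under another background correction (normexp). In the fit of the better measured probes 21 of 28 passed the adjusted p, beside 8.19% of all. Without 979F3 the clones were apart upward at 29 of the 33 probes, where the share of all probes was 15.7%, and 1 of the 28 passed, beside 0.913% of all. Col1a1, a chain of type I collagen, was at 1.48, 1.91 and 2.01 in 979F and at -0.10, 0.76 and 0.48 in 979B clones (1.42, adjusted p = 0.0696). Acta2, smooth muscle actin, had 1.96 (adjusted p = 0.0602), Col3a1 1.85, Col1a2 1.33, Vim 1.19 and S100a4 1.31 and 1.32.

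Fibroblast markers were also summed. All 10 probes were well above background in the 979F clones, 979B3 and 979B4, and 9 in 979B1. Their summed normalized signal was 31.7, 42.0 and 45.8 in 979F, 16.0, 23.9 and 17.6 in 979B, 21.2 to 37.6 in the other Aid-/- and 2.17 to 20.1 in the other Aid+/+ clones. The sum for 10 probes of iPS cell markers was 771, 745 and 737 in 979F and 919, 862 and 866 in 979B clones. Dppa5a, the brightest of them, weighs most in it, at 8.87, 8.84 and 8.84 against 9.14, 9.07 and 9.05. Clones were apart downward at 5 of the 10 and upward at 1, Utf1 (0.14), beside 16.8% and 12.5% of all probes. In RNA from a whole culture, more cells of a type and more RNA per cell cannot be told apart. The clones had been passaged on feeder cells before gelatin, and the part that fibroblast RNA has in the other differences was not tested.

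**Figure D3:**
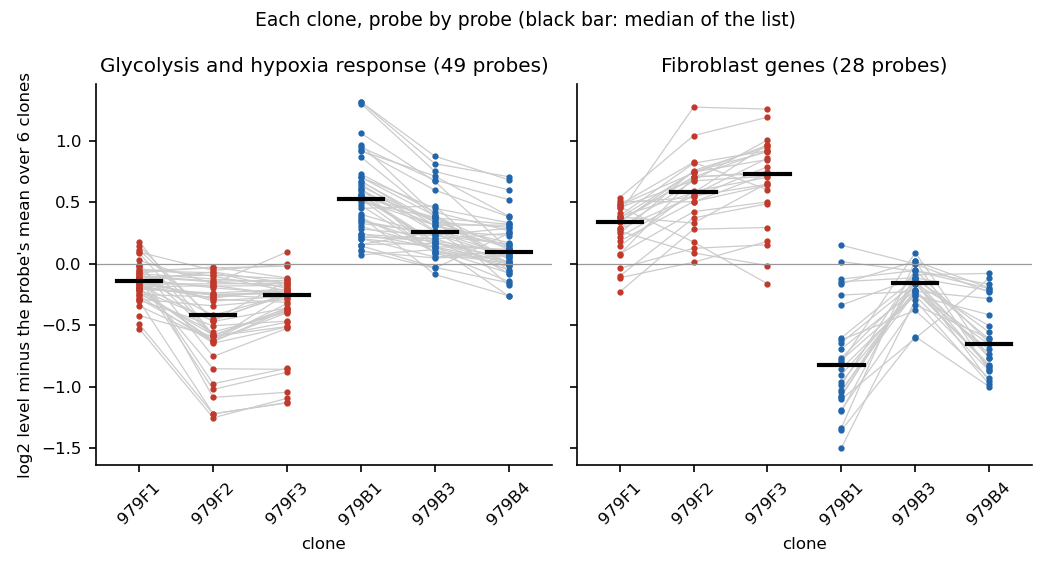
Each clone's log2 level minus the mean of the 6 clones (vertical axis), 1 point per probe, for the probes of 2 lists with a signal well above background in every clone; grey lines join the values of a probe within a series and black bars are list medians. The glycolysis and hypoxia medians of all 979F clones lie below those of all 979B clones, and the fibroblast medians lie above, with 979B3 closest to 979F.

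Hox genes, which keep positional identity in fibroblasts, had higher levels too. Of 43 probes for 39 genes, 0 passed both thresholds, 10 had an unadjusted p under 0.05, all upward (9.19% of all probes did), and 12 were well above background on all 6 arrays. Clones were apart upward at 12 of the 43, beside 12.5% of all probes, and downward at 0. Of the 12 better measured probes, 6 passed the adjusted p in the fit of such probes, beside 8.19% of all, and 0 without 979F3, beside 0.913%. The median of the 12 was 0.93, or 0.37 under normexp. Hoxa5 had 1.35 (adjusted p = 0.0740), Hoxa3 1.29 and Hoxb6 1.03. The summed fibroblast markers were also higher in 979F clones, and whether these differences are linked was not tested.

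**Figure D4:**
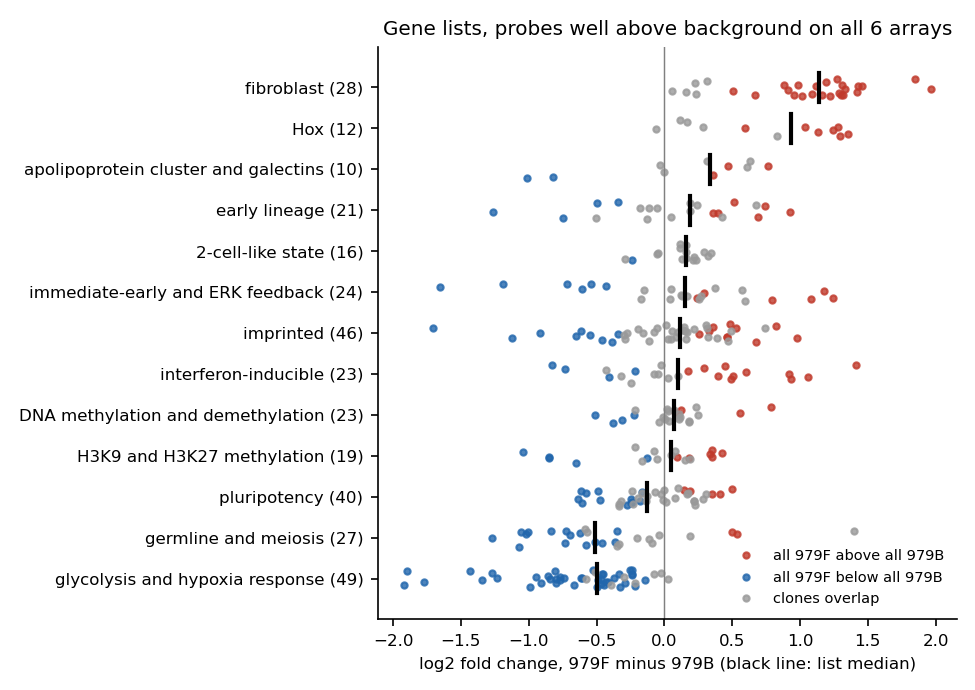
Log2 fold change of 979F over 979B clones for each probe of 13 gene lists with a signal well above background in every clone (number of probes in brackets), with the list median as a black line. Red points mark probes with every 979F clone above every 979B clone and blue points the reverse; fibroblast and Hox lists hold no blue points, and the glycolysis and hypoxia list holds no red points.

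Genes of the immediate-early response and of feedback on the ERK kinases were split. Of 27 probes for 26 genes, 1 passed both thresholds (0.415% of all probes did). It was Etv4, a transcription factor induced by FGF and ERK signalling, at 1.52, 1.61 and 1.92 in 979F against 0.52, 0.64 and 0.64 in 979B clones (1.08, SE 0.13, adjusted p = 0.0493), with 0.79 on its other probe. Clones were apart upward at 6 and downward at 7 of the 27, beside 12.5% and 16.8% of all probes. Fos had -1.65 (adjusted p = 0.0659) and Egr1 -1.19 (adjusted p = 0.0551), both early targets of ERK. At Egr1 the 979F clones were at 0.36, 0.28 and 0.10, the 979B clones at 1.49, 1.16 and 1.66, and the means of the other Aid-/- and Aid+/+ clones, 2.66 and 2.54, were higher than either.

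Of 35 probes for 29 germline and meiosis genes, 2 passed both thresholds, both downward (0.23% of all probes did). Both were of Tdrd5, a tudor protein of the piRNA pathway in male germ cells. At one the levels were -1.48, -1.78 and -1.79 in 979F and -0.65, -0.66 and -0.68 in 979B clones (-1.02, SE 0.12, adjusted p = 0.0482), and the other gave -1.05 (adjusted p = 0.0438). The clones were apart downward at 15 of the 35 probes (16.8% of all probes were) and upward at 2, and the list median was -0.36. In the fit of the better measured probes 11 of 27 passed downward, beside 12.6% of all, and 0 upward, and without 979F3 it was 2 downward, beside 1.34%. Sycp3, of the meiotic chromosome axis, had -1.07 (adjusted p = 0.0752), Taf7l -0.69 and Ddx4 -0.46.

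Of 40 probes for 30 pluripotency genes, 0 passed both thresholds, 2 and 9 had an unadjusted p under 0.05 upward and downward (9.19% and 12.2% of all probes did), and all 40 were well above background on every array. In the fit of such probes 6 passed the adjusted p downward, beside 12.6% of all, and 0 upward, and without 979F3 it was 0 downward and 1 upward. Nanog had -0.24 (SE 0.12, adjusted p = 0.353), Pou5f1, which encodes Oct3/4, 0.10 (SE 0.18, adjusted p = 0.855), Sox2 -0.25 and Esrrb -0.19. The largest differences downward were those of Tdgf1, the Nodal co-receptor, at -0.64, -0.61 and -0.58, Nr5a2 at -0.61 on 1 probe and -0.13 on the other, and Eras at -0.49 (adjusted p = 0.0830). The largest upward was that of Dppa2, at 0.50 (adjusted p = 0.207) and 0.41. Clones were apart at 12 of the 40 probes downward and 5 upward, beside 16.8% and 12.5% of all.

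Other cytidine deaminases and the enzymes of DNA methylation had 0 calls. Of 5 probes for Apobec1, Apobec2, Apobec3 and Apobec4, 0 passed and 1 had an unadjusted p under 0.05. Apobec3, a restriction factor for retroviruses, had -0.71 (adjusted p = 0.137) and -0.57, and Apobec1 -0.31. Of 25 probes for 16 genes of DNA methylation and its removal, 0 passed both thresholds, and 2 and 3 had an unadjusted p under 0.05 upward and downward, near the 9.19% and 12.2% of all probes. Of the enzymes that oxidise or remove methylated cytosine, Tet1 had -0.01 and 0.01 (SE 0.08 and 0.09), Tet2 0.02 and 0.08 and Tdg 0.11 to 0.23. The methyltransferase Dnmt3a had -0.51 (adjusted p = 0.113) and its cofactor Dnmt3l -0.38. Gadd45g and Gadd45a, proposed to act in demethylation through DNA repair, had 0.79 (adjusted p = 0.121) and 0.56. Of 19 probes for 15 genes of H3K9 and H3K27 methylation 0 passed. An unadjusted p under 0.05 was reached by 3 upward and 4 downward, beside 9.19% and 12.2% of all probes. Clones were apart upward at 6 and downward at 5 of the 19, beside 12.5% and 16.8% of all probes, and the median was 0.05. The demethylase Kdm4c (-0.65, adjusted p = 0.0605) and the methyltransferase Ezh1 (-1.04, -0.85 and -0.85) were apart downward, and Jarid2 (0.42), the demethylase Kdm6b (0.35) and the methyltransferase Suv39h1 (0.34) upward.

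The remaining lists also had 0 matched probes past both thresholds in limma. At an unadjusted p under 0.05, which 9.19% of all probes reached upward and 12.2% downward, imprinted genes had 10 probes upward and 11 downward, interferon-inducible genes 12 and 4, early lineage genes 7 and 4, genes of the 2-cell-like state 0 and 1, and apolipoproteins and galectins 3 and 2. Of all probes, 12.5% had the clones apart upward and 16.8% downward. Imprinted genes (57 probes, 35 genes) were apart upward at 13 and downward at 10 probes, with Sgce at -0.92 (adjusted p = 0.0674) and Dlk1 at 0.82 and 0.74. Interferon-inducible genes (36 probes, 28 genes) were apart upward at 15 and downward at 4, with Ifi27 at 1.41, Irgm1 at 1.06 and 0.92, and Bst2 at -0.83. Early lineage genes (37 probes, 30 genes) were apart upward at 8 and downward at 4, with the epithelial keratin Krt18 at -1.26 (adjusted p = 0.0559). Genes of the 2-cell-like state (24 probes, 16 genes) were apart upward at 0 and downward at 2, and Zscan4c, their best known marker, had 0.13 to 0.21 over 3 probes (SE 0.52 to 0.56). In the list of apolipoproteins and galectins (11 probes for 8 of its 10 genes, with no matched probe for Lgals6, which the study's own list names at a probe past both thresholds), the neighbouring genes Apoe (-0.82, adjusted p = 0.0664) and Apoc1 (-1.01) were apart downward and the galectin Lgals1 (0.76) upward.

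The other 6 clones, none of which enters the comparison above, were measured at the same 231 probes, the Aid-/- ones on the slide of the 979B clones. In the other Aid-/- over the other Aid+/+ clones the sign was the same at 143 of the 231 (61.9%), and at 52.8% of all probes. These Aid-/- clones were all on the same side of these Aid+/+ clones, in the direction of 979F over 979B, at 54 of the 231 (23.4%, beside 9.82% of all probes), and in the opposite direction at 18 (7.79%, beside 5.01%). All 6 Aid-/- clones were apart from all 6 Aid+/+ clones at 36 of the 231 (15.6%), and at 2.17% of all probes. Since 979F and 979B clones are apart at all 231, this share was also taken over the probes at which they are apart, where it was 7.42%. Among the 36 were Zfp607b, Ogn, Aspa and Svep1 upward and Mal2, Tdrd5, Upk3bl, Gstt2, Gmfg and Kcnj10 downward. Of these genes, Zfp607b alone also passed both thresholds in the other Aid-/- over the other Aid+/+ clones (3.46, adjusted p = 0.0200 from limma). That comparison called 5 probes in all, and 1 of them was called here too, in the same direction. The 979F clones alone stood apart from the other 9 clones at 81 of the 231 (35.1%, beside 23.1% of the probes at which 979F and 979B are apart and 6.77% of all) and the 979B clones alone at 105 (45.5%, beside 11.7% and 3.43%). These shares describe probes chosen on the same 6 clones, so no test was made of them. At Ogn the other Aid+/+ clones ranged from -7.07 in 967B4 to -1.47, and their difference from the other Aid-/- clones did not pass (3.24, adjusted p = 0.631).

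**Figure D5:**
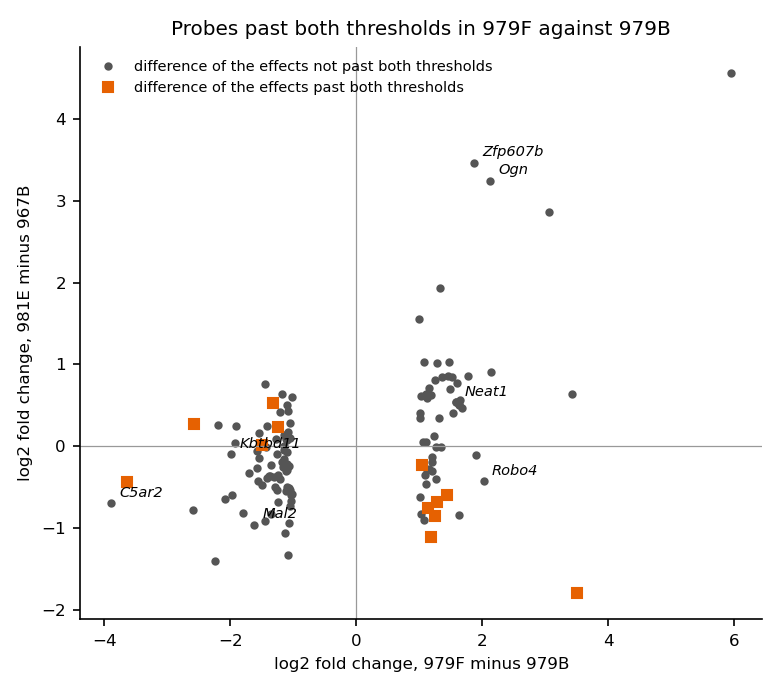
Log2 fold change of the other Aid-/- over the other Aid+/+ clones (vertical axis) against that of 979F over 979B clones (horizontal axis) for the 132 called probes with a good signal in every 979F and 979B clone. Zfp607b and Ogn lie high in both comparisons, C5ar2, Robo4 and Neat1 lie between -0.69 and 0.54 on the vertical axis, and orange squares mark the probes at which the difference of the effects passed both thresholds.

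The difference between this effect and that in the other 6 clones was tested probe by probe and passed both thresholds at 59 probes, 27 upward and 32 downward (0.106% of all probes), 24 of them among the 231. Without 1 clone the 59 became 14 to 164, with 14 without 979F3 and 164 without 967B4. Among the named probes, the lincRNA probe A_30_P01033172 passed, with a difference of -1.51 (SE 0.20, adjusted p = 0.0306). Zfp607b (adjusted p = 0.0723) and C5ar2 (0.0820) did not pass. At Zfp607b the other Aid-/- clones, at 1.06 ± 0.14 (SD, n = 3), were higher than the 979F clones at -0.16 ± 0.25.

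The study lists 38 probes that differed over all 12 clones, which include the 6 clones here, so their direction here is no independent evidence. All 38 had the listed direction in 979F over 979B, 35 by more than 2-fold, and 15 passed both thresholds. A_52_P154741, listed as Lgals6, a galectin, was at -0.48, -1.32 and -1.10 in 979F and at -3.92, -4.32 and -3.83 in 979B clones (3.06, SE 0.26, adjusted p = 0.0363). The other Aid-/- clones had a mean of -0.68 and the other Aid+/+ clones a mean of -3.54. A_55_P2196447, listed as 9430069I07Rik, fell by 2.23 (adjusted p = 0.0424) and Upk3bl by 1.06. Gsx2 (A_55_P2052071) and Scgb1b29 (A_55_P2022288), also past both thresholds, were well above background in 0 of the 6 clones, so no fold change is given for them.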

How the data were processed

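Total RNA of each clone was labelled with Cy3 and hybridised to a 1-colour Agilent mouse array. The authors read the spots with Feature Extraction 10.7.3.1 and deposited its processed intensity, with background and spatial trend removed and no scaling between arrays. They also deposited log2 values made in GeneSpring with each array's 75th percentile at 0, tried here as another source of values. Of the deposited intensity log2 was taken, control spots and outlier spots were left out, spots of a probe were averaged, and each array's 75th percentile was subtracted. A spot marked as an outlier was set to missing, so a few probes were fitted on fewer arrays.

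Genotypes were compared with limma 3.58.1 in R 4.3.3 (lmFit, eBayes), with Benjamini-Hochberg adjustment over all 55681 probes, without a filter on dim probes. The effects in these 6 and in the other clones were compared in a fit of 12 clones. A bound sets the mean of the bright series against the detection limit of the dim arrays (their lowest signal well above background), or against the dim signal itself where that was higher. Genes were named through RefSeq accessions (27235 probes, 20660 genes). Named are the 12 highest and 12 lowest genes past both thresholds and well above background on all arrays (some genes chosen by this rule, the targeted gene among them, are not reported here, nor is the check of labels it would give), up to 8 bounds each way, members of the gene lists, 3 lincRNAs each way and probes of the study's list. Other members were named after their values were seen. The members and lists were chosen with earlier results of these data known. Arrays were simulated with the spread of the 979F against 979B comparison (55601 probes) and independent normal noise. The 200 changed probes were drawn only from those well above background on all 6 arrays, so recovery of dimmer probes was not measured. Of the 200, 156 were recovered, 92 of 100 at a log2 fold change of 3 and 64 of 100 at 1.5, with 5 false calls. Unchanged probes had the same mean in both series, without any effect of slide or embryo. The false calls therefore do not measure how many of the real calls are false. Alternatives were other background corrections, normalizations, filters, tests and samples. Tables and figures were made with pandas 2.3.3 and matplotlib 3.10.9.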

Additional observations from a re-analysis of the deposited data

Results flagged for a closer look

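The lincRNA probe A_30_P01033172 was flagged because the effect differed between the 979F and 979B clones and the other 6 clones in the fit of 12 clones. The difference of the log2 effects was -1.51 (SE 0.20, adjusted p = 0.0306 from limma), with -1.49 for 979F minus 979B and 0.02 for the other Aid-/- minus the other Aid+/+ clones. The 979B clones were the highest of the 4 series, at -1.33, -1.39 and -1.55, and the other 9 clones lay between -3.09 and -2.61. The 979B arrays shared slide 3 with those of the other Aid-/- clones, which were at -2.66, -2.99 and -2.61. Series of 3 clones are too small for a search for outlying clones.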

How the results depend on the processing

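The count of 231 probes past both thresholds stayed within 1.5 times with normexp background correction (291), but only 64 of those were among the 231. It also did so with the deposited log2 values (222, all among them), with the 75th percentile over detected probes (170, 165 shared), with 12 clones in the fit (236, 126 shared) and with the adjusted p alone (283). Over probes well above background on every array of 1 series it rose to 1074, and over those on all 6 arrays to 790. Fewer probes enter both the fit and the adjustment there. The count also rose to 445 with quantile normalization (227 shared) and to 1168 with an intensity trend and robust estimation (226 shared). It fell to 70 with the methods' t-test, to 74 with that test on the deposited log2 values (chosen after seeing the data) and to 4 at an adjusted p under 0.01. The cause of these shifts was not tested except where stated. With the percentile over detected probes, 55.3% of the calls were higher in 979F, against 44.6%. Leaving out 1 clone gave 2 to 16. Clone number as a replicate block gave 0 calls in limma (7599 probes at an unadjusted p under 0.05). The numbers 1 and 3, shared by 979F and 979B clones, only name colonies. Deviations of clones with the same number correlated at 0.121 and 0.119, and those of clones with different numbers between -0.127 and 0.115. The numbers were not taken as a pairing, and calls lost under the block are not read as weaker effects. The count of 59 differences of effects became 100 over probes well above background in 1 series, and 14 to 164 without 1 clone. The 47 named probes had 784 values under the alternatives, of which 0 reversed, 325 stayed past both thresholds and 459 did not. Leaving out 1 clone ended 46 or all 47 of these calls, the replicate block 47 and the methods' t-test 35. Probes dim on an array carry little information, which the number of arrays limits further.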

Other observations

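Among the largest differences were 3 probes without a match in the RefSeq gene table used for names, chosen after their values were seen. A_55_P1974432 was at -1.57, -1.58 and -1.50 in 979F and at 1.83, 2.18 and 2.24 in 979B clones (-3.63, SE 0.13, adjusted p = 0.00611 from limma), and the other 6 clones lay between -2.24 and -1.22, so the 979B clones alone were high. A_55_P2164085 was at -0.32, 0.04 and -0.24 against -3.13 or less in the 979B clones (11.3-fold, adjusted p = 0.0359), while the other Aid+/+ clones were the highest at 0.62 to 0.90. A_55_P2372228 had 3.43 (adjusted p = 0.0359), and among the other clones 967B4 alone was low, at -2.32. Of the imprinted genes, Meg3 had -3.05 with a standard error of 1.02 (adjusted p = 0.170) on the best measured of its 3 probes (0.10 and -2.17 on the others), and Mirg of the same cluster -1.71 (adjusted p = 0.182).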
